A study of Mus musculus with 8 samples.

Results

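A set of 10 surface and reporter genes that are used to sort mouse blood stem cells was read in nuclei of the sorted marrow fraction itself. They were Kit, Ly6a, Cd34, Cd48, Slamf1, Procr, Fgd5, Cd27, Esam and Tek, taken by their symbols as 10 of the 32285 genes in the table. The samples were bone marrow cells of WT mice and of littermates that carry the T58A point mutation of MYC, sorted as lineage-negative, Sca1+, ckit+ (LSK) and profiled as nuclei with the 10x multiome assay, which reads RNA and open chromatin of 1 nucleus together. The labels name 2 RNA samples of each genotype, each made from 2 mice, and no mouse age. Barcodes fall into 4 sets by their suffix, and no label or header ties a set to a genotype or a replicate. WT and T58A were therefore not compared, the table was read as 1 sample, and the sets are shown side by side with their genotype unknown. It is not certain that nuclei of both genotypes are in the table.

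Stem cells of the marrow are found by combinations of surface proteins, since no single protein marks them. The LSK fraction is defined by absence of mature lineage markers together with Sca-1 (the product of Ly6a) and c-Kit. Within it, the SLAM receptors CD150 (Slamf1) and CD48, with CD34, CD27, EPCR (Procr), ESAM and Tie2 (Tek), divide long-term stem cells from multipotent and lineage-primed progenitors. Fgd5 is different in kind: its product is an exchange factor inside the cell, and the gene serves as a reporter of stem cells rather than as a surface marker. The sort acted on proteins, and the counts here are nuclear RNA, so a level below is a level of RNA alone.

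The table held 45723860 UMIs (unique molecular identifiers, each counted as 1 captured RNA molecule) in 8708 nuclei, with 1001 to 24786 UMIs per nucleus. Sets 1 to 4 held 2999, 721, 2756 and 2232 nuclei. Mitochondrially encoded genes took 24.6% and 24.2% of UMIs in sets 1 and 3, against 9.98% and 9.22% in sets 2 and 4, so sets 1 and 3 stood apart. A barcode sequence was found in more than 1 set for 72 nuclei. Counts called below were also taken without sets 1 and 3, and those that changed are named with their result.

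Nuclei were put into classes by 16 marker lists, none of which holds any of the 10 genes. A nucleus entered a class when it held at least 3 markers of a list at 2 or more times their share of all UMIs, and more of them than of any other list. The hematopoietic stem cell (HSC) list was Hlf, Mecom, Mllt3, Meis1, Rarb, Mycn, Prdm16, Hoxb5, Ctnnal1 and Pdzk1ip1, and it gave 1210 HSC-gated nuclei. The other large classes were lymphoid progenitor-gated (1030 nuclei), myeloid progenitor-gated (613), erythroid progenitor-gated (540) and megakaryocyte-gated (137). Although the labels give a lineage-negative sort, lists of mature cells gated nuclei too: dendritic cell-gated (170), plasma cell-gated (148), B lineage-gated (146), monocyte and macrophage-gated (119), neutrophil-gated (112) and late erythroid-gated (96). The monocyte and macrophage-gated nuclei went against their name: they held more of the summed myeloid progenitor markers (2355 CPM) than of their own (1259 CPM), with Mpo at 944 CPM. In them 22 of 24 measured G2/M genes were called higher than in HSC-gated nuclei, against 4.87% of all 9580 measured genes. Megakaryocyte-gated nuclei likewise held more of the summed HSC markers (3395 CPM) than of their own (1830 CPM), with Mecom at 741 CPM. Their own list stood at 157 CPM in HSC-gated nuclei, and 70 of the 137 megakaryocyte-gated nuclei held exactly 3 markers. Transcripts of other classes were seen throughout, such as the immunoglobulin gene Igkc at 165 CPM in HSC-gated and 42053 CPM in plasma cell-gated nuclei, and Mecom at 136 CPM in plasma cell-gated and 2338 CPM in HSC-gated nuclei, and the part of free RNA in low levels was not tested. A further 4167 nuclei, 47.9% of the table, reached no class. The gate is a threshold on a score and not a type: 591 of the HSC-gated nuclei held exactly 3 markers, and 951 nuclei held 2 with no list higher. Clusters made without the 10 genes and named by the same lists matched the gates unevenly. Of HSC-gated nuclei 70.2% lay in clusters of the same name, of myeloid progenitor-gated 40.5% and of lymphoid progenitor-gated 56.5%. The shares were 86.1% for megakaryocyte-gated and 91.1% for erythroid progenitor-gated nuclei, and no cluster was named late erythroid.

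Promoters of 8 of the 10 genes were found in RefSeq (GRCm38.p6), and 4 are shown because the results below turn on these genes: Slamf1 and Cd48, whose RNA went opposite ways from the HSC class to the myeloid and lymphoid progenitor classes, and Fgd5 and Tek, which were both high in HSC-gated nuclei but differed in megakaryocyte-gated nuclei. Each run is the 250 bases before the start given there, on the plus strand, with matches to a searched motif in capitals. For Cd48, Fgd5 and Tek that start lies inside the gene span given below, so the Cd48 run lies within that span and the Fgd5 and Tek runs overlap it. Slamf1 is at chr1:171766882-171767131, Cd48 at chr1:171681742-171681991, Fgd5 at chr6:91978715-91978964 and Tek at chr4:94739039-94739288.
Slamf1: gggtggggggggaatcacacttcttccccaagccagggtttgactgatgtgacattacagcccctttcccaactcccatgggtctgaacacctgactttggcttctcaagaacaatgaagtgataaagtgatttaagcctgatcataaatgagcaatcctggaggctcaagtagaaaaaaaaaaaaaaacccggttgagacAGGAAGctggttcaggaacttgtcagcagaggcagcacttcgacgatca
Cd48: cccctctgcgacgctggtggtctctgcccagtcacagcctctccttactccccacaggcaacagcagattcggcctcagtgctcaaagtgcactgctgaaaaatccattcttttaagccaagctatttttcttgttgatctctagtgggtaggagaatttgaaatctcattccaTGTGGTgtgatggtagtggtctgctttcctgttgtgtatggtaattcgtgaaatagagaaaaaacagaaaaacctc
Fgd5: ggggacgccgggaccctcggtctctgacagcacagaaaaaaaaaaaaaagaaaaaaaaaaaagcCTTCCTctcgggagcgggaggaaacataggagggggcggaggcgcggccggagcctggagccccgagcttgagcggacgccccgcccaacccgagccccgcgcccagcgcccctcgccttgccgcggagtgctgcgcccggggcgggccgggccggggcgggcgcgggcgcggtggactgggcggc
Tek: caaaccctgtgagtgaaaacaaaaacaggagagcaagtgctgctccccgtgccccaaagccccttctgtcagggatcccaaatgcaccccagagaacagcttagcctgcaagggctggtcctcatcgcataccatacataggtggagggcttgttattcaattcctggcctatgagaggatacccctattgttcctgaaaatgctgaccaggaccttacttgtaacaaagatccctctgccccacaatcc

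Both strands were searched for the GATA motif AGATAA, the ETS motif AGGAAG, the RUNX motif TGTGGT and the E-box CAGCTG. The ETS letters were in the promoters of Kit, Cd34, Slamf1 and Fgd5, 4 of 8, and in 29.5% of 32851 promoters of the same length. The RUNX letters were in the Cd48 promoter alone among the 8 and in 14.0% of all. The E-box letters were in the Procr promoter alone among the 8 and in 13% of all. None of the 8 held the GATA letters, which 9.99% of all promoters hold. A match is a description of these letters and not a binding site.

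Cd48 and Slamf1 are neighbours on chromosome 1. In GRCm38.p6, Cd48 lies at chr1:171681245-171705258 and Slamf1 at chr1:171767131-171801184, with 61.873 kb between the end of the first and the start of the other. The remaining genes lie at chr5:75574987-75656722 (Kit), chr15:74994877-74998031 (Ly6a), chr1:194938821-194961292 (Cd34), chr2:155751125-155755478 (Procr), chr6:91978827-92076005 (Fgd5), chr6:125232620-125237136 (Cd27), chr9:37528089-37538319 (Esam) and chr4:94739086-94874976 (Tek).

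The 10 genes were captured at very different depths. Kit had 21606 UMIs and was seen in 73.0% of nuclei, Cd34 had 9519 UMIs in 49.9%, Cd27 had 3014 in 24.3% and Cd48 had 2398 in 19.5%. Tek had 1038 UMIs in 8.70% of nuclei and Fgd5 had 922 in 8.08%. The other 4 were sparse: Slamf1 had 416 UMIs, Esam 380, Ly6a 379 and Procr 279, each in 2.97% to 4.02% of nuclei. Ly6a, 1 of the 2 genes whose protein defined the sort, thus had a UMI in 3.81% of nuclei. UMIs are not scaled to gene length here, so levels are compared within a gene and not between genes.

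Levels below are UMIs per 1000000 UMIs of a class (CPM) with 95% intervals, which cover counting error only. A member was called higher or lower than in HSC-gated nuclei when the ratio of CPM plus 10, pooled over the sets, reached 1.5-fold and its direction, of any size, was the same in each barcode set with at least 10 nuclei of both classes. That call describes 1 table and is no test between animals. Classes differed in the share of their nuclei from each set, so a pooled ratio can differ from the ratios within sets.

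Most of the 10 genes were lower in committed progenitors than in HSC-gated nuclei. In myeloid progenitor-gated nuclei 7 of 10 were lower and 1, Cd48, was higher, while 16.9% of the 10391 measured genes were called lower and 5.75% higher. In lymphoid progenitor-gated nuclei the counts were also 7 lower and 1 higher, Cd48, against 7.09% and 4.01% of 10681 genes. In megakaryocyte-gated nuclei 6 were lower and 1, Slamf1, was higher, against 12.2% and 3.72% of 9594 genes. In erythroid progenitor-gated nuclei 9 were lower and none higher, against 26.3% and 7.61% of 10337 genes, and the exception was Kit. All 10 had at least 50 counts over both classes in each of these comparisons. HSC-gated nuclei alone met that minimum for every member, with 99 (Procr) to 3957 (Kit) counts. A sparse member could thus enter through that class and be called lower on few counts, such as 1 for Procr in the megakaryocyte class. The numbers of lower members are therefore a description and no test.

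The median log2 ratio over the 10 genes was -1.08 in myeloid, -1.04 in lymphoid, -0.89 in megakaryocyte and -1.49 in erythroid progenitor-gated nuclei. Over all measured genes the medians were -0.11, -0.03, -0.07 and -0.20. Stem cell transcription factors, a list of 20 that holds some of the genes used for the gate, had medians of -1.63, -1.28, -0.39 and -2.04. Adding 50 in place of 10 CPM left 3 lower calls in the myeloid and lymphoid classes and 4 in the erythroid class. A minimum of 200 counts left 3, 3 and 5. Ly6a, Slamf1, Procr and Esam stood at 16.1 to 23.8 CPM in HSC-gated nuclei. With 50 CPM added, that is too low for a 1.5-fold lower call even with no count in the class. The minimum of 200 counts leaves these genes out by rule. Loss of their calls was thus fixed by both settings and does not test them. The calls still rest on few counts, such as 11, 8, 15 and 10 in the myeloid class.

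**Figure D1:**
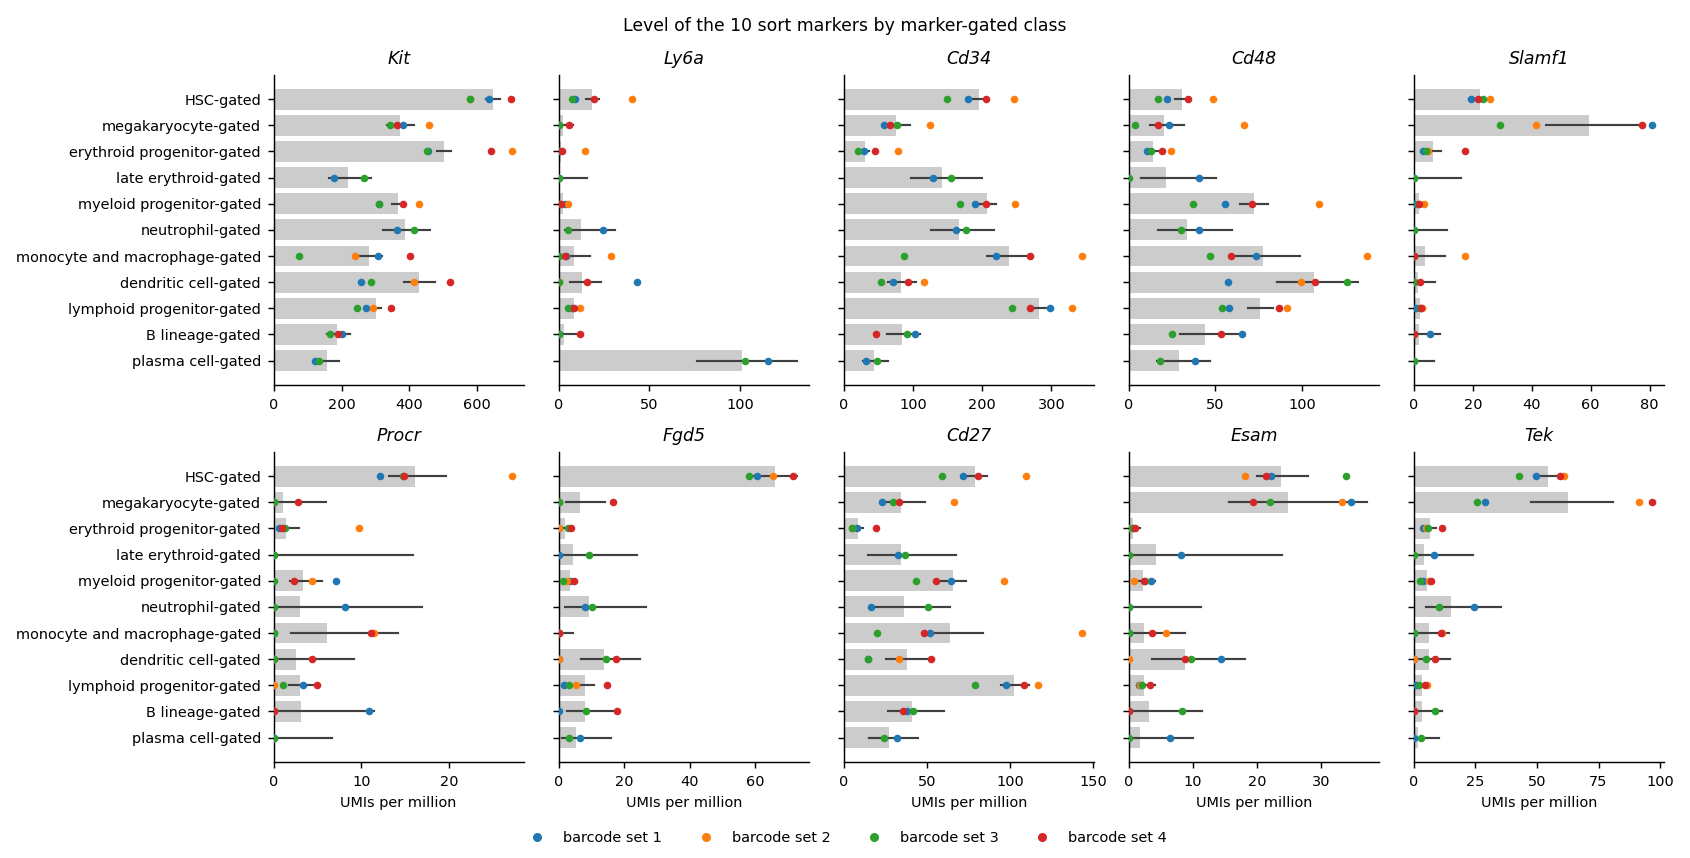
Each panel gives 1 gene in UMIs per 1000000 for the 11 marker-gated classes of at least 50 nuclei: the bar is the level over all nuclei of a class, the black line its exact Poisson interval, and points are barcode sets with at least 10 nuclei of that class. Fgd5 is highest in HSC-gated nuclei at 66.0, Slamf1 in megakaryocyte-gated nuclei at 59.3, Cd48 in dendritic cell-gated nuclei at 107 and Ly6a in plasma cell-gated nuclei at 101.

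Kit encodes the receptor tyrosine kinase for stem cell factor. In HSC-gated nuclei its level was 635, 579, 578 and 700 CPM in sets 1 to 4. The class order began with HSC-gated at 645 CPM, erythroid progenitor-gated at 502 and dendritic cell-gated at 428, and ended with B lineage-gated at 188 and plasma cell-gated at 157. Of the 4 progenitor classes, the erythroid class thus had the Kit level nearest to that of HSC-gated nuclei. Myeloid progenitor-gated nuclei had 310, 427, 311 and 380 CPM, below the HSC-gated value in every set, and the ratio was 0.57 (0.54 to 0.60). The lymphoid ratio was 0.47 (0.44 to 0.50) and the megakaryocyte ratio 0.58 (0.52 to 0.64). The megakaryocyte call was lost with clusters in place of gates and with 2 markers for a class. In erythroid progenitor-gated nuclei Kit was at 454, 702, 451 and 642 CPM, lower than HSC-gated in 3 sets and higher in set 2, and the ratio of 0.78 (0.74 to 0.82) did not reach the fold of a call. Plasma cell-gated nuclei, the lowest class, had a Kit UMI in 28.4% of nuclei at a median of 3088 UMIs, against 84.6% of HSC-gated nuclei at 3985.5. How much of the lower share is free RNA was not tested. At 2000 UMIs a nucleus those shares were 17.8% and 67.8%.

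Tek encodes Tie2, the angiopoietin receptor, known from endothelium and from quiescent stem cells. Its level in HSC-gated nuclei was 49.6, 61.0, 42.7 and 59.3 CPM over the sets. Megakaryocyte-gated nuclei reached 28.9, 91.6, 25.7 and 96.7 CPM, above HSC-gated in sets 2 and 4 and below in sets 1 and 3, with 5 to 35 counts a set. The ratio of the pooled levels was 1.15 (0.86 to 1.53), no call in either direction. Myeloid progenitor-gated nuclei were far lower in each set, at 3.5, 6.1, 2.5 and 7.0 CPM, and HSC-gated nuclei exceeded them 10.2-fold (6.76 to 16.2). The HSC-gated excess was 15.6-fold (9.93 to 25.8) over the lymphoid and 8.51-fold (5.91 to 12.6) over the erythroid class. Tek thus divided HSC-gated and megakaryocyte-gated nuclei from the other 3 progenitor classes. Megakaryocyte-gated nuclei also held HSC list markers, and the part of this in their Tek, Esam and Slamf1 levels was not tested.

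Esam, an endothelial cell adhesion molecule of the junctional adhesion family, showed the same grouping at lower counts. HSC-gated nuclei had 22.3, 18.1, 33.9 and 21.4 CPM and megakaryocyte-gated nuclei 34.7, 33.3, 22.0 and 19.3 CPM, with overlapping ranges and a ratio of 1.04 (0.64 to 1.62). Against this, Esam had 10 counts in myeloid, 14 in lymphoid and 3 in erythroid progenitor-gated nuclei. HSC-gated nuclei exceeded the myeloid class 10.8-fold (5.69 to 22.9) and the lymphoid class 9.76-fold (5.63 to 18.3). The ratio to the erythroid class was 39.8 (13.4 to 195.1). Of its family, F11r and Jam3 were also measured and both were lower in the myeloid, lymphoid and erythroid classes: F11r had 21.4 CPM in HSC-gated and 2.0 CPM in myeloid progenitor-gated nuclei, and Jam3 had 12.9 and 1.3 CPM.

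Tek, Esam and Fgd5 are also endothelial genes, so an endothelial list (Cdh5, Stab2, Kdr, Flt4, Plvap, Ptprb, Tie1 and Ldb2) was read beside them. It gated 8 nuclei, which held Tek at 810 CPM, Fgd5 at 202 CPM and Esam at 152 CPM. These are the highest values of all classes, from 32, 8 and 6 counts. Summed over the list, HSC-gated nuclei had 83.8 CPM and megakaryocyte-gated nuclei 99.2 CPM, against 10.4 to 15.7 CPM in the myeloid, lymphoid and erythroid progenitor classes and 9871 CPM in the endothelial-gated nuclei. Most of the HSC-gated sum was Tie1, the orphan receptor paired with Tie2, at 60.0 CPM. Its part in the levels of Tek, Esam and Fgd5 was not tested.

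Slamf1 encodes CD150, the SLAM receptor that defines long-term stem cells when CD48 is absent. Its level in HSC-gated nuclei was even over the sets, at 19.2, 26.0, 23.6 and 21.7 CPM. In megakaryocyte-gated nuclei it was 80.9, 41.6, 29.4 and 77.4 CPM, so the ranges did not overlap, and the ratio was 2.66 (1.91 to 3.66) from 55 and 137 counts. The call was lost when gates were read at 2000 UMIs (ratio 2.03) and without nuclei of a high doublet score (2.45), and it could not be made at a minimum of 200 counts. Myeloid and lymphoid progenitor-gated nuclei had 8 and 12 counts of Slamf1, or 1.77 and 2.09 CPM. HSC-gated nuclei exceeded them 12.6-fold (6.23 to 29.8) and 10.7-fold (5.92 to 21.2). Erythroid progenitor-gated nuclei were between, at 6.58 CPM, with 3.3, 4.9, 4.0 and 17.2 CPM over the sets; that lower call was lost without sets 1 and 3 and with clusters in place of gates. Plasma cell-gated nuclei held no Slamf1 UMI, which makes HSC-gated nuclei at least 4.12-fold higher at a floor of 3 counts over the class.

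Cd48 encodes the GPI-anchored SLAM family member whose protein appears as stem cells become progenitors. Its RNA ran the other way. HSC-gated nuclei had 22.3, 48.6, 16.9 and 34.5 CPM, and in myeloid progenitor-gated nuclei Cd48 was at 55.4, 110, 37.2 and 71.3 CPM, higher within every set although the ranges over sets overlap. The ratio was 2.35 (1.96 to 2.83). Lymphoid progenitor-gated nuclei had 58, 91.4, 53.7 and 86.5 CPM, all above the highest HSC-gated set, and a ratio of 2.47 (2.08 to 2.95). The myeloid call was lost when clusters replaced the gates. Dendritic cell-gated nuclei were highest at 107 CPM, 3.50-fold (2.68 to 4.54) over HSC-gated nuclei. In erythroid progenitor-gated nuclei Cd48 was at 13.8 CPM, with 10.4, 24.4, 12.6 and 19.1 CPM over the sets, lower than HSC-gated in each. The pooled ratio was 0.45 (0.34 to 0.59), a call lost without sets 1 and 3 and with 4 markers for a class. Set shares enter that ratio, which lies below the ratio within each set. Sets 1 and 3 gave 189 and 253 of the 540 erythroid progenitor-gated nuclei, against 291 and 338 of the 1210 HSC-gated nuclei. Megakaryocyte-gated nuclei had 20.5 CPM from 19 counts and no call.

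Of the SLAM family list, Ly9, Cd84 and Cd244a were measured beside Slamf1 and Cd48. In lymphoid progenitor-gated nuclei, where 4.01% of all measured genes were called higher, Ly9 and Cd244a were higher and Cd84 had no call. Cd244a, the receptor for CD48, was at 66.4 CPM in lymphoid progenitor-gated against 22.3 CPM in HSC-gated nuclei, and Ly9 was at 35.2 against 19.9 CPM. In erythroid progenitor-gated nuclei, where 26.3% of all measured genes were called lower, these 3 genes were lower as well, for example Cd84 at 34.5 against 162 CPM. In plasma cell-gated nuclei Slamf7 was at 213 CPM against 0.5 CPM in HSC-gated nuclei.

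**Figure D2:**
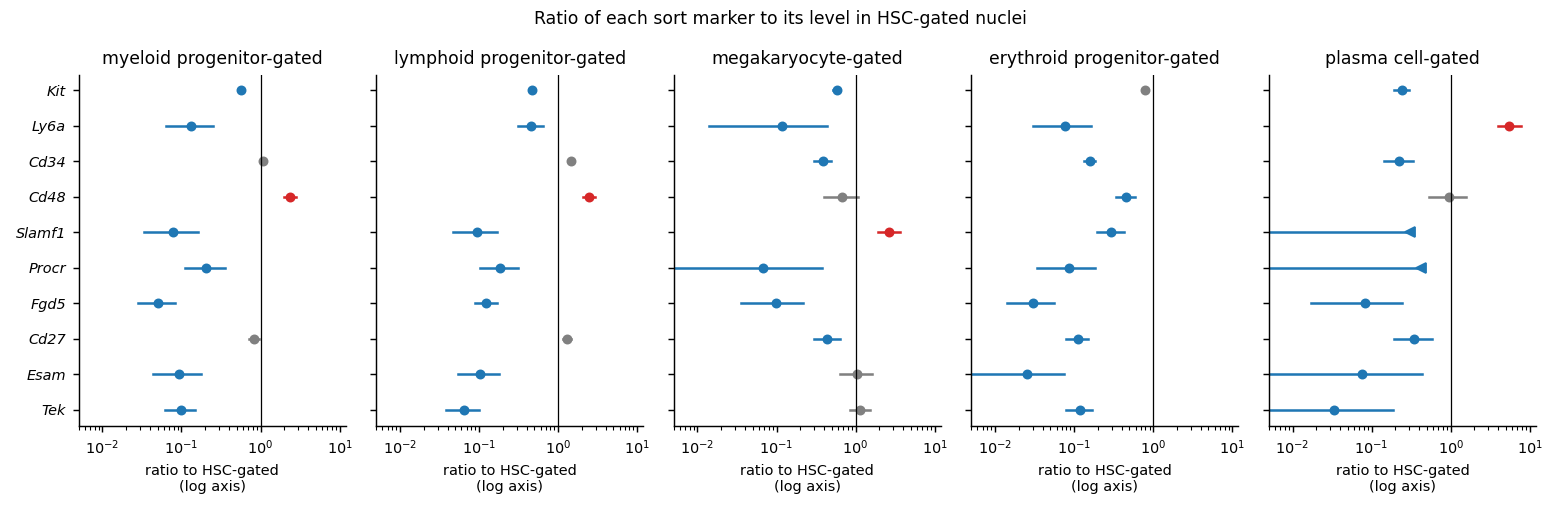
Each point is the level of 1 gene in a class divided by its level in HSC-gated nuclei on a log axis, with the exact 95% interval of the ratio; arrowheads mark genes with no count in the class, and lines that meet the left edge extend beyond it. Red marks a higher call, blue a lower call and grey no call: Cd48 is red in the myeloid and lymphoid panels, Slamf1 in the megakaryocyte panel and Ly6a in the plasma cell panel.

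Slamf1 and Cd48 were then read in the same nuclei, each thinned to 2000 UMIs, which kept 7548 nuclei. Total depth was thus equal, but mitochondrial UMIs took a larger part of it in sets 1 and 3. Only 131 nuclei (1.74%, 1.45 to 2.06) held a Slamf1 UMI and no Cd48 UMI, 671 (8.89%) held Cd48 and no Slamf1, and 5 held both. Slamf1 was seen in 0.740% (0.241 to 1.72) of nuclei with Cd48 and in 1.91% (1.6 to 2.26) of nuclei without it. A nucleus without a UMI can still express the gene at this depth, and 6741 nuclei held neither. For a background at 2000 UMIs, Slamf1 was seen in 0.335% of myeloid and 0.313% of lymphoid progenitor-gated nuclei, against 3.97% of HSC-gated nuclei. Cd48 was seen in 2.67% of erythroid progenitor-gated nuclei, against 5.14% of HSC-gated nuclei.

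Nuclei with Slamf1 and no Cd48 were rich in stem and megakaryocyte classes. Of the 131, 43 (32.8%, 24.9 to 41.6) were HSC-gated and 14 (10.7%, 5.97 to 17.3) megakaryocyte-gated. Since only 5 nuclei held both genes, the 131 are nearly all nuclei with a Slamf1 UMI. What absence of Cd48 adds to these shares could not be read. Of the 671 with Cd48 and no Slamf1, 56 (8.35%, 6.37 to 10.7) were HSC-gated and 7 (1.04%) megakaryocyte-gated, while 129 (19.2%) were lymphoid progenitor-gated and 66 (9.84%) myeloid progenitor-gated. Nuclei with neither had 14.95% in the HSC and 12.2% in the lymphoid progenitor gate. The HSC-gated share of the Slamf1 nuclei was 20.6% with 4 markers for a class and 22.9% with gates read at 2000 UMIs. The HSC gate itself then held 619 and 769 nuclei, against 1210. These shares are therefore not comparable with the 14.95% of nuclei with neither.

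Levels of other genes were read in the same groups, which already differ in class shares, so they are not separate evidence. Mecom, a stem cell transcription factor and a marker of the HSC gate, was at 1351 CPM (1214 to 1499) in nuclei with Slamf1 alone. It was at 574 CPM (534 to 616) in those with Cd48 alone. Vwf, the von Willebrand factor gene of megakaryocytes and platelet-biased stem cells, was at 126 CPM (86.7 to 176.9) against 4.47 (1.64 to 9.73), from 33 and 6 counts. Mpo, the myeloperoxidase gene of myeloid progenitors, was at 72.5 CPM (43.7 to 113.2) against 747 (702 to 795), and Dntt, the terminal transferase of lymphoid progenitors, at 22.9 (8.40 to 49.8) against 186 (163 to 210.1). Among the remaining sort markers, Tek was at 76.3 CPM (46.6 to 117.9) against 15.6 (9.69 to 23.9), Kit at 660 (566 to 766) against 494 (457 to 533), and Cd34 at 126 (86.7 to 176.9) against 288 (260 to 319). The Fgd5 levels of 22.9 and 21.6 CPM had overlapping intervals, with 6 counts in the Slamf1 nuclei.

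**Figure D3:**
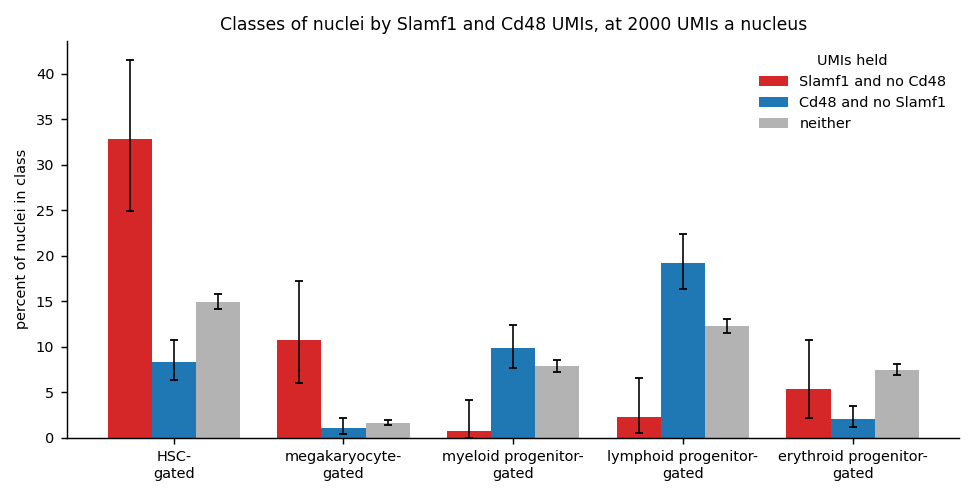
Bars give the percent of nuclei in 5 marker-gated classes for nuclei with a Slamf1 UMI and no Cd48 UMI (131), Cd48 and no Slamf1 (671) or neither (6741), after thinning to 2000 UMIs a nucleus; lines are exact 95% intervals. HSC-gated nuclei make up 32.8% of the first group and 8.35% of the next, and lymphoid progenitor-gated nuclei 2.29% and 19.2%.

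Fgd5 RNA stood well above the other classes in HSC-gated nuclei. It was at 60.7, 65.6, 58.2 and 71.7 CPM over the sets, and at 13.9 CPM or less in the other 10 classes of at least 50 nuclei. The next highest class was dendritic cell-gated, at 13.9 CPM from 11 counts. HSC-gated nuclei exceeded the myeloid class 19.9-fold (11.9 to 35.9), the lymphoid class 8.06-fold (5.95 to 11.2), the megakaryocyte class 10.2-fold (4.65 to 28.0) and the erythroid class 33.1-fold (17.8 to 69.6). Each of these lower calls was kept under all 16 alternatives run. Unlike Tek and Esam, Fgd5 did not stay high in megakaryocyte-gated nuclei, where 6 UMIs were counted. At 2000 UMIs, 300 nuclei held an Fgd5 UMI and 47.7% (41.9 to 53.5) of them were HSC-gated, against 13.3% of nuclei without one. Of the Fgd family list of 6, which includes Fgd5, 2 of 5 measured genes were lower in the myeloid, 1 of 5 in the lymphoid, 3 of 5 in the megakaryocyte and 4 of 6 in the erythroid class. Over all measured genes the shares called lower were 16.9%, 7.09%, 12.2% and 26.3% in that order. Higher calls were made on Fgd2 in the lymphoid class, at 80.2 against 35.7 CPM, on Fgd3 in the megakaryocyte class, at 67.9 against 33.9 CPM, and on Fgd6 in the erythroid class, at 27.7 against 2.4 CPM. In those classes 4.01%, 3.72% and 7.61% of all measured genes were called higher.

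Procr encodes the endothelial protein C receptor, EPCR. HSC-gated nuclei had 12.1, 27.1, 14.7 and 14.8 CPM. Committed progenitors held few UMIs: 15 in myeloid, 17 in lymphoid, 1 in megakaryocyte and 7 in erythroid progenitor-gated nuclei. HSC-gated nuclei exceeded the myeloid class 4.86-fold (2.81 to 9.02), the lymphoid class 5.45-fold (3.24 to 9.73) and the erythroid class 11.6-fold (5.41 to 29.5). The ratio to the megakaryocyte class, from a single count there, was 14.97 (2.63 to 597.1). Procr was thus like Fgd5 in being high in HSC-gated nuclei and low in the megakaryocyte class, there from 1 count.

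Ly6a encodes Sca-1, the surface protein of the sort, and its RNA varied more between sets than that of any other member in HSC-gated nuclei. It was at 9.1, 40.7, 7.4 and 19.6 CPM, with 9 to 57 counts a set, higher in sets 2 and 4 than in sets 1 and 3, the sets of high mitochondrial share. The part of that share in the difference was not tested. Myeloid progenitor-gated nuclei held 3.5, 5.2, 0 and 1.2 CPM, and HSC-gated nuclei exceeded them 7.51-fold (4.04 to 15.5). Lymphoid progenitor-gated nuclei had 7.5, 11.8, 5.1 and 8.2 CPM, below HSC-gated in each set by a total of 2.23-fold (1.57 to 3.21). The lymphoid call was kept under 9 of 16 alternatives and lost under others, among them leaving out set 2 or set 4, clusters in place of gates and 2 markers for a class. Erythroid progenitor-gated nuclei had 7 counts, of which the set 2 level was 14.6 CPM and the others at most 1.9.

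The highest Ly6a level was not in a progenitor class. Plasma cell-gated nuclei numbered 56 in set 1, 86 in set 3, 2 in set 2 and 4 in set 4. Their summed plasma cell markers stood at 63261 CPM, against 226 CPM in HSC-gated nuclei. Ly6a had 116 CPM in set 1 and 103 CPM in set 3 of that class, against 9.1 and 7.4 CPM in HSC-gated nuclei of the same sets. Over all sets the level was 101 CPM and the ratio 5.54 (3.95 to 7.70). That ratio was taken against HSC-gated nuclei of all sets, at 18.3 CPM, which include sets 2 and 4 at 40.7 and 19.6 CPM. The difference in set shares thus enters it, and the levels within sets 1 and 3 lay further apart. Of plasma cell-gated nuclei, 29.7% (22.5 to 37.8) held a Ly6a UMI at a median of 3088 UMIs, against 1.37% of B lineage-gated nuclei at 3316.5. In the same nuclei 8 of the other 9 members were called lower than in HSC-gated nuclei, while 53.1% of all 9461 measured genes were called lower and 5.09% higher. Kit, the other protein of the sort, was among the 8, at 122 and 133 CPM in sets 1 and 3. Ly6e, the only relative of Ly6a also measured in that comparison, was at 248 against 126 CPM. In myeloid progenitor-gated nuclei the relatives went the opposite way from Ly6a, with Ly6c2 at 88.1 against 2.9 CPM and Ly6e at 268 against 126 CPM.

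Cd34, a sialomucin of progenitors and endothelium, is absent as protein from most adult long-term stem cells and gained by multipotent progenitors. HSC-gated nuclei had 180, 245, 149 and 206 CPM. Lymphoid progenitor-gated nuclei were highest in the class order at 282 CPM and exceeded HSC-gated nuclei in every set, with a ratio of 1.45 (1.34 to 1.56), just short of the 1.5-fold call. Myeloid progenitor-gated nuclei, at 206 CPM, had a ratio of 1.06 (0.97 to 1.16). Cd34 was lower in the megakaryocyte class, where the ratio was 0.39 (0.30 to 0.49), and in the erythroid class, where it was 0.16 (0.13 to 0.19). Nuclei of no class held 262 CPM (254 to 269), above the HSC-gated 195 (184 to 206). Emcn, the endomucin gene, was lower in all 4 progenitor classes, for example at 10.2 against 66.9 CPM in the myeloid class.

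Cd27, a TNF receptor family member gained by short-lived multipotent progenitors and lymphocytes, tracked Cd34. It was at 71.8, 110, 58.9 and 81.0 CPM in HSC-gated nuclei, highest in lymphoid progenitor-gated nuclei at 103 CPM with a ratio of 1.30 (1.15 to 1.47), and at 65.5 CPM in the myeloid class with a ratio of 0.83 (0.72 to 0.96). Neither reached a call. In megakaryocyte-gated nuclei the ratio was 0.44 (0.30 to 0.63) and in erythroid progenitor-gated nuclei 0.11 (0.08 to 0.15), both called lower.

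In the remaining classes the 10 genes were mostly low. Of 10 members, 9 were called lower in B lineage-gated nuclei (20.6% of measured genes lower, 7.29% higher), 8 in late erythroid-gated (42.7% and 11.7%), and 7 each in neutrophil-gated (32.5% and 4.84%), dendritic cell-gated (15.3% and 8.32%) and monocyte and macrophage-gated nuclei (14.2% and 4.87%). Cd48 was the only member called higher in any of these 5, in the dendritic cell class and, at 77.5 CPM, in the monocyte and macrophage class, where it turned to a log2 ratio of -0.14 with clusters in place of gates. Late erythroid-gated, neutrophil-gated and plasma cell-gated nuclei come almost wholly from sets 1 and 3, so the direction of their calls was read in those sets alone. The fold was still taken against HSC-gated nuclei of all sets, for the members and for the shares of all genes. Among other settings, the lower call on Kit in the neutrophil class was lost with mitochondrial UMIs left out of the total (ratio 0.68). Without sets 1 and 3 no B lineage call could be made, since set 2 held 4 such nuclei, and the lower call on Procr in the monocyte and macrophage class was lost. Cd34 in monocyte and macrophage-gated nuclei was at 220, 344, 87.2 and 270 CPM over the sets, and 34.5% of these nuclei lay in clusters of that name.

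Neighbouring classes in the order of levels were often not separable. Of 10 neighbouring pairs of classes per member, 7 to 10 had overlapping ranges over sets. For Cd48 all 10 overlapped, and for Kit 9 of 10. The exceptions include Ly6a between plasma cell-gated and HSC-gated nuclei, Slamf1 between megakaryocyte-gated and HSC-gated nuclei, and Fgd5 between HSC-gated nuclei and the next class. By counting intervals, 7 to 10 of the 10 pairs overlapped, all 10 of them for Procr and Cd34.

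Members were next followed along the HSC list itself, in nuclei where no other list reached the gate. There were 1804 nuclei with no HSC marker high, 1412 with 1, 951 with 2, 591 with 3, 338 with 4 and 239 with 5 or more. From the first to the last of these steps Fgd5 went from 13.9 (11.4 to 16.7) to 94.7 CPM (78.6 to 113.0), and its ranges over sets, 6.55 to 23.4 and 87.0 to 106.2 CPM, did not overlap. Procr went from 4.01 to 25.6 CPM, Ly6a from 4.51 to 30.3, Esam from 4.76 to 24.1, Slamf1 from 5.89 to 23.3 and Tek from 19.9 to 60.5. Ranges over sets did not overlap for these 5 either. Kit went from 463 to 680 CPM, also with separate ranges. Cd48 and Cd34 went down along the same steps: Cd48 from 61.5 to 19.4 CPM, with set ranges of 38.8 to 89.0 and 4.25 to 30.4, and Cd34 from 255 to 163 CPM, with set ranges of 230 to 331 and 97.7 to 226. Cd27 was level, at 68.3 and 76.0 CPM. Median depth was similar at the ends, 3591 and 4148 UMIs. Mpo went from 495 to 91.6 CPM and Top2a, a topoisomerase of dividing cells, from 634 to 263 CPM along these steps, so the nuclei also differed in lineage and cycle genes, and the part of those in the member trends was not tested.

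**Figure D4:**
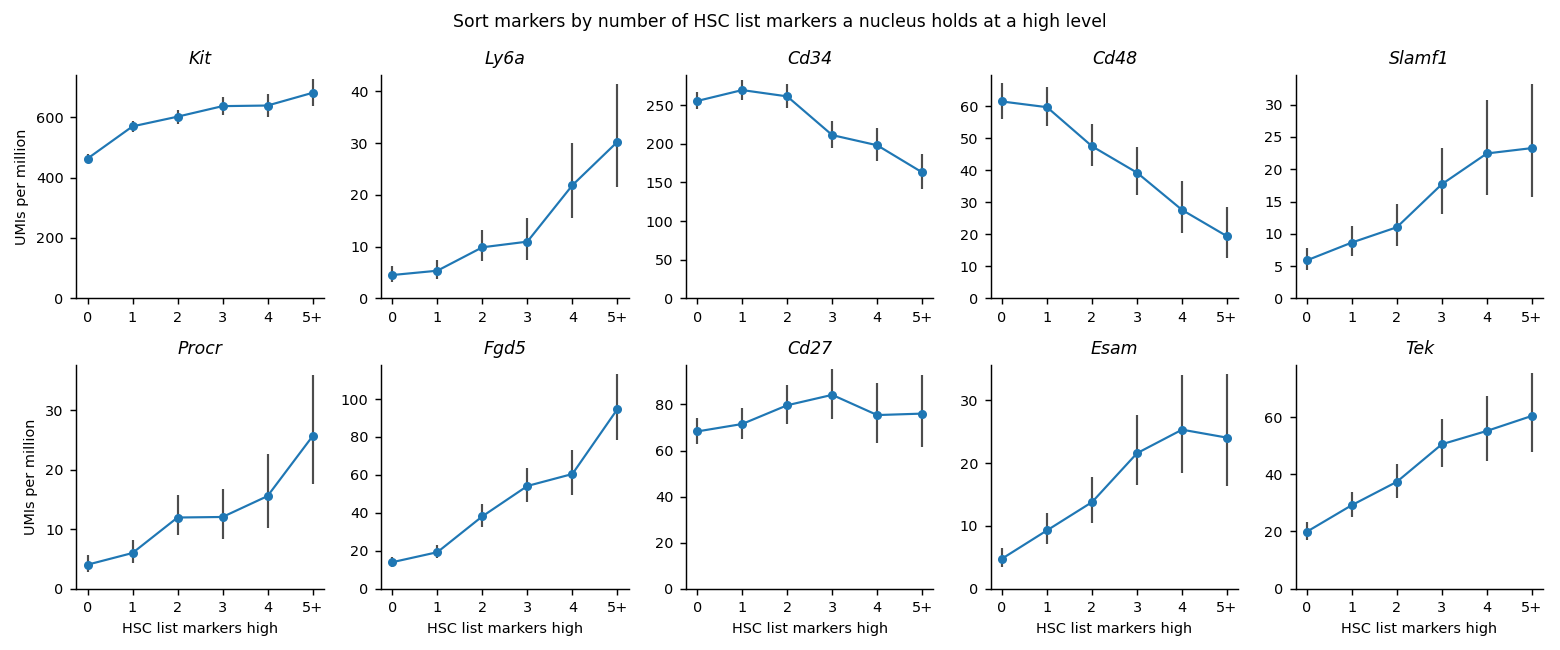
Each panel gives 1 gene in UMIs per 1000000 against the number of HSC list markers a nucleus holds at a high level, among nuclei where no other list reached the gate; points are pooled levels and lines exact Poisson intervals. Fgd5 goes from 13.9 to 94.7, Cd48 from 61.5 to 19.4 and Cd27 stays between 68.3 and 84.2.

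Within the HSC-gated nuclei, members were compared between nuclei with more and fewer G2/M genes, at 2000 UMIs each. A list of 25 G2/M genes was used: 422 of 1108 nuclei (38.1%) held UMIs of at least 2 of them and 686 held fewer. In plasma cell-gated nuclei 19.3% held at least 2 as well. There 12 of 22 measured G2/M genes were called lower than in HSC-gated nuclei, near the 53.1% of all 9461 measured genes called lower. The split is read as a level of these genes and not as a count of dividing cells. Fgd5 was at 45.0 CPM (31.9 to 61.8) in the first group and 94.8 CPM (79.2 to 112.5) in the other, and the ranges over sets, 31.6 to 54.9 and 83.9 to 125 CPM, did not overlap. Esam was at 21.3 (12.6 to 33.7) against 40.8 CPM (30.8 to 53.0), with set ranges of 19.2 to 26.3 and 29.8 to 56.6 that also did not overlap. Procr was at 5.92 (1.92 to 13.8) against 20.4 CPM (13.6 to 29.5), from 5 and 28 counts, with overlapping set ranges. For Ly6a, Cd27, Kit, Cd34, Cd48, Slamf1 and Tek the ranges over sets overlapped. Tek was at 49.8 and 48.8 CPM, and Slamf1 at 30.8 (20.1 to 45.1) and 21.1 (14.2 to 30.4). Hlf, a marker of the gate, was at 800 (741 to 862) against 1136 CPM (1080 to 1193), so the groups differed in the gate's own genes as well.

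**Figure D5:**
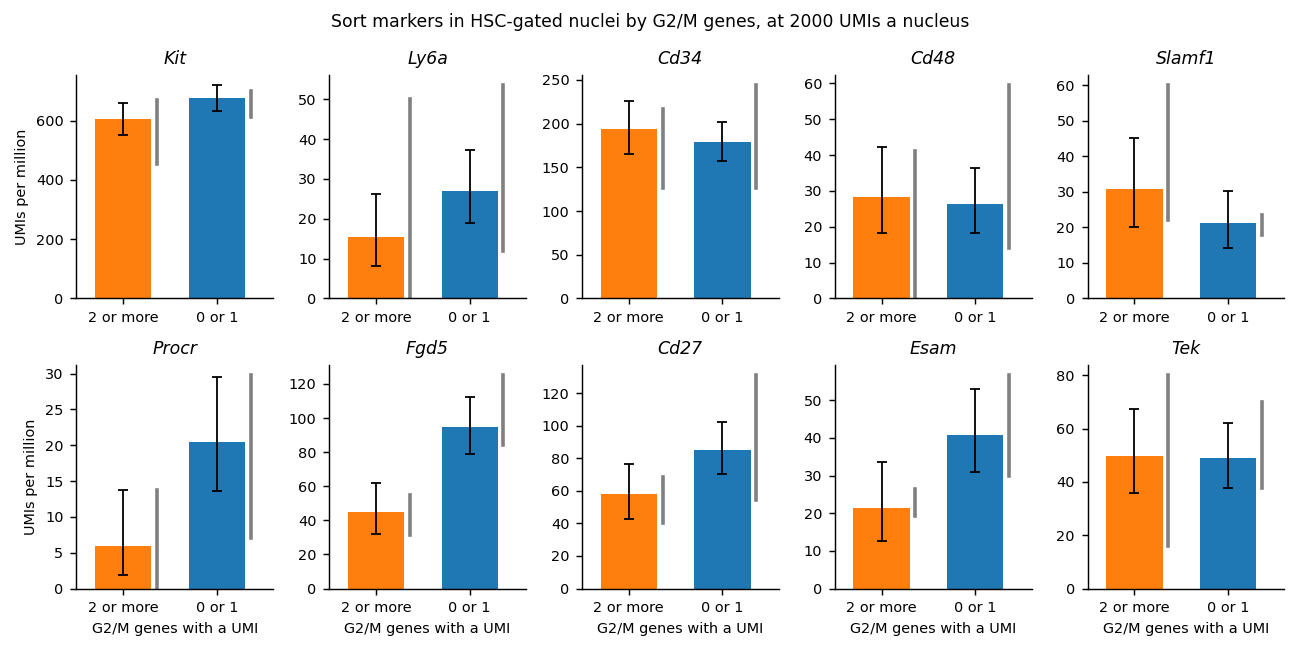
Bars give each gene in UMIs per 1000000 in HSC-gated nuclei with UMIs of 2 or more G2/M genes (422 nuclei) or of 0 or 1 (686 nuclei), all at 2000 UMIs; black lines are exact Poisson intervals and grey lines the range over barcode sets. Fgd5 stands at 45.0 and 94.8 and Esam at 21.3 and 40.8, with separate ranges over sets, while Tek stands at 49.8 and 48.8.

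Across the 11 classes of at least 50 nuclei, the members formed a few groups by the correlation of log2(CPM plus 10). These correlations describe 11 points that share 1 table and differ in depth. Slamf1 and Tek had a Pearson r of 0.90, Esam and Tek 0.85 and Slamf1 and Esam 0.84, all of them high in both the HSC and the megakaryocyte class; their Spearman rho values were lower, at 0.57, 0.27 and 0.40. Cd34 and Cd27 had an r of 0.89 and a rho of 0.86. Procr had an r of 0.72 and a rho of 0.17 with Fgd5, and an r of 0.57 and a rho of 0.78 with Cd27. Cd48 and Slamf1 had an r of -0.38.

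The genes whose pattern over those classes was most like a member were taken by the same r among 7859 genes. Among those closest to Tek were Prkg1 (r 0.96) and Slc6a15 (0.96). Closest to Slamf1 were Ndrg3 (0.97), Mgmt (0.96) and Macrod2 (0.95), and closest to Esam were Mpdz (0.96), Plxdc2 (0.95) and Plxna4 (0.93). Fgd5 was followed by Mamdc2 (0.96), Crispld1 (0.94) and Zfp532 (0.94), and Procr by Ifitm1 (0.87), Gm28187 (0.86) and Nceh1 (0.86). For Cd48 the first were St8sia4 (0.95), Selplg, the P-selectin ligand gene (0.95), and Nuak2 (0.95). For Cd34 they were Kcnk12 (0.96), Zfp422 (0.95) and Fgd4 (0.95), and for Cd27 Slc16a7 (0.95), Gm26692 (0.94) and Arhgap32 (0.93). Kit was matched by Prdx6 (0.91), Echdc1 (0.89) and Ccdc158 (0.87), and Ly6a by Fam214a (0.95), Atat1 (0.94) and Cdc14b (0.92).

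A wider list of 30 other sorting markers gives the setting. In myeloid progenitor-gated nuclei 23 were measured, with 6 higher and 7 lower, in the lymphoid class 22 with 8 and 8, in the megakaryocyte class 20 with 2 and 7, and in the erythroid class 20 with none higher and 15 lower. Of all measured genes, 5.75% were called higher and 16.9% lower in the myeloid class, and 4.01% and 7.09% in the lymphoid class. The shares were 3.72% and 12.2% in the megakaryocyte class and 7.61% and 26.3% in the erythroid class. Flt3, the receptor of multipotent and lymphoid progenitors and itself in the lymphoid gate, was at 268 CPM in HSC-gated nuclei. Alcam, an adhesion molecule, was at 392 CPM in HSC-gated against 50.7 CPM in megakaryocyte-gated and 33.7 CPM in erythroid progenitor-gated nuclei.

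Ligands and partners of the members form a list of 22 genes, of which 15 were measured. Angpt1, which encodes the ligand angiopoietin-1 of Tie2, was at 4331 CPM in HSC-gated nuclei. It was called lower in 3 of the 4 progenitor classes, at 731 CPM in the myeloid, 1348 CPM in the lymphoid and 457 CPM in the erythroid class, and stood at 4540 CPM in the megakaryocyte class. Tie1 was lower in the same 3, for example at 7.3 against 60.0 CPM in the lymphoid class. F2r, the thrombin receptor gene, was higher in the megakaryocyte class, at 102.5 against 27.2 CPM.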

How the data were processed

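The labels name 4 RNA samples (2 WT, 2 T58A, each from 2 mice), and 4 chromatin accessibility (ATAC) samples that were not used here. The 1 table used is named for T58A alone, and nothing in it ties nuclei to a sample, so use of WT nuclei is not established. The authors deposited raw UMI counts for 32285 genes in 8708 nuclei, with no normalization. Per the submitters' processing notes, Cell Ranger ARC, Seurat and Signac were used, and the build was mm10. Tool versions, annotation and nucleus filters are not given in the sources used here. All values were checked to be whole numbers, and 0 further columns of per-sample values were left unused.

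Sums of counts per class were scaled to UMIs per 1000000 (CPM) with Python 3.11.15, NumPy 2.4.6, SciPy 1.17.1 and pandas 2.3.3. No sums per sample could be formed, so the planned tests of T58A against WT were not run, and no p-value was made from nuclei. Calls used genes with at least 50 counts over both classes. Intervals at 95% are exact Poisson for CPM, exact binomial for ratios and Clopper-Pearson for shares. Beside a count of 0, a floor of 3 counts was used. On simulated counts the call found 98% to 100% of genes raised 4-fold and 70% to 80% of genes lowered to 0.5 times, per progenitor class with 50 genes each, and it called 0.303% to 2.19% of unchanged genes. The changed genes were drawn from those with at least 100 counts in HSC-gated nuclei, and Procr had 99. Free RNA and errors of the gate were not simulated, so these shares do not carry over to the sparse members.

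Thinning drew 2000 UMIs per nucleus without replacement and left out 1160 nuclei. All deposited nuclei were kept. Doublets were left in, and only an alternative dropped the 5% per set whose nearest neighbours were most often simulated doublets. Another alternative replaced gates by clusters (2000 variable genes, 30 principal components, 15 neighbours, Leiden resolution 0.8, scikit-learn 1.9.0, leidenalg 0.10.2), named by the same marker lists. Other alternatives changed the markers per class, the fold, the added CPM, the count minimum, mitochondrial UMIs in the total and the sets left in.

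The 10 members, the 16 marker lists and 11 other gene lists were chosen with earlier results of these data known. Named beside the members were the 3 genes of most similar pattern per member (at least 500 counts, classes of at least 50 nuclei, without members, class markers, sex-linked and mitochondrial genes), list genes of highest and lowest ratio, and class markers. Other list genes named were chosen after their values were seen. A gene that these rules name is not reported here. Gene positions and promoters are from RefSeq (GRCm38.p6), matched by symbol.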

Additional observations from a re-analysis of the deposited data

How the results depend on the processing

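No paired analysis was possible because no barcode set is tied to a sample, so replicate numbers of T58A and WT could not be used, and a replicate block could not be fitted. In the 4 progenitor classes, 462 of 512 values of the 32 calls under an alternative were still called the same way and 0 the opposite way. In the 6 other classes 621 of 752 values of 49 calls were, and 1 had the opposite direction: Cd48 in the monocyte and macrophage class had a log2 ratio of -0.14 with clusters in place of gates. The cause was not tested. The count of members higher in megakaryocyte-gated nuclei was 0 with gates read at 2000 UMIs, 0 without nuclei of high doublet score and 0 at a minimum of 200 counts, which leaves fewer genes to call. With clusters it was 0 in the myeloid class. Adding 50 CPM gave 3 lower members in the myeloid, 3 in the lymphoid and 4 in the erythroid class. A minimum of 200 counts gave 3, 3 and 5. Neither setting could call Ly6a, Slamf1, Procr or Esam lower. Leaving out 1 barcode set gave 7 lower members in the myeloid, 6 to 7 in the lymphoid, 6 in the megakaryocyte and 9 in the erythroid class, and 1, 1, 1 and 0 higher. The share of nuclei with Slamf1 and no Cd48 was 1.57% to 1.87% without 1 set, 2.17% without sets 1 and 3 (chosen after seeing the data), 2.93% at 4000 UMIs and 3.01% with no thinning. Its HSC-gated part was 30.4% to 36.5% without 1 set, 20.6% with 4 markers and 22.9% with gates read at 2000 UMIs. The last 2 settings also shrank the HSC gate, from 1210 to 619 and 769 nuclei. Among values of single members and classes, 1432 stayed within their spread and 137 moved. Depth limits Slamf1, Procr, Ly6a and Esam most, since many class levels rest on under 20 counts.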
